A study of Mus musculus with 8 samples.

Results

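Class Bacilli in mouse stool was examined by sequencing the V4 region of the bacterial 16S ribosomal RNA gene. Its members are the amplicon sequence variants (ASVs, distinct read sequences) whose deposited taxonomy places them in Bacilli and which had reads in these mice. There were 26 such ASVs of 434 with reads in all, and they held 21822 of 914504 reads (2.39%). They fell into 6 orders, 9 families and 16 genera, counting ASVs without a genus name as an unnamed unit of their family or order.

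Stool came from 8 female mice. Of these, 4 were Gpr15l-/- (genotype ko, called knockout) and 4 were controls (genotype wt). The protein made from Gpr15l is a secreted ligand of the receptor GPR15. Knockouts and controls were described as littermates, and all had been housed together for 8 weeks when stool was taken. The sources used here do not give strain, age, the form of the Gpr15l allele, cage or litter. Mice are numbered 1 to 4 within each genotype in order of deposit, and the numbers pair no knockout with a control. Whether co-housed littermates that differ in Gpr15l carry different Bacilli is the question of the comparison. Libraries held 129792 to 226654 reads in knockouts and 38578 to 122026 in controls. Every knockout library was deeper than every control library, so depth and genotype cannot be told apart. For the share of a genus or of the class in 1 mouse, 95% Wilson intervals extended no further than 0.20 percentage points on each side and cover counting error only. In a library with 0 reads of a genus, shares of up to 0.00132% (knockout 1) to 0.00778% (control 2) remain possible, the share of 3 reads. This bound, too, covers counting error only.

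Bacilli is a broad class in current 16S taxonomies. It holds the lactic acid bacteria, which ferment sugars in the gut, and the Erysipelotrichales, many of them anaerobes that are regular residents of the rodent intestine. It also takes in the Mycoplasmatales, parasites and commensals of mucosal surfaces that have lost the cell wall, and aerobic or facultative genera such as Staphylococcus and Sporosarcina, whose relatives are isolated from skin, bedding, dust and soil. The deposited names come from a short stretch of the 16S gene, the table gives no sequences, and no name could be checked against one here. The words "skin and bedding genera" below name a list, and the source of these reads was not measured.

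Bacilli as a class made up 0.504%, 3.34%, 3.24% and 1.21% of all reads in knockouts 1 to 4 and 2.18%, 3.5%, 6.53% and 3.01% in controls 1 to 4. The genotypes overlapped, with knockout 1 lowest and control 3 highest of the 8 mice. Mean shares were 2.07% ± 1.43 for knockouts and 3.8% ± 1.90 for controls (SD, n = 4 each). As 1 of 12 classes tested with edgeR, a count model fitted across all classes, Bacilli had a log2 fold change (knockout over control) of -0.59 ± 0.38 (SE) and did not pass (adjusted p = 0.736). None of the 12 classes passed (0%), and 1 had an unadjusted p below 0.05. DESeq2 and the other tools tried did not call Bacilli either. Without control 3 the control mean was 2.89%. The knockout mean was 2.60% without knockout 1 and 1.65% without knockout 2.

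The class total was made of different bacteria in different mice. The 4 skin and bedding genera (Sporosarcina, Jeotgalicoccus, Aerococcus and Staphylococcus) held 77.8% of Bacilli reads in knockout 2, 66.1% in knockout 3 and 76.9% in control 3. Ureaplasma held 68.6% in control 2 and 73.9% in control 4. Erysipelotrichales led in knockout 1 (55.4%), knockout 4 (61.6%) and control 1 (40%). Leaving out both Ureaplasma and the skin and bedding genera, the rest of the class ranged from 0.459% to 1.03% of all reads in knockouts and from 0.661% to 1.64% in controls, and the genotypes overlapped.

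**Figure D1:**
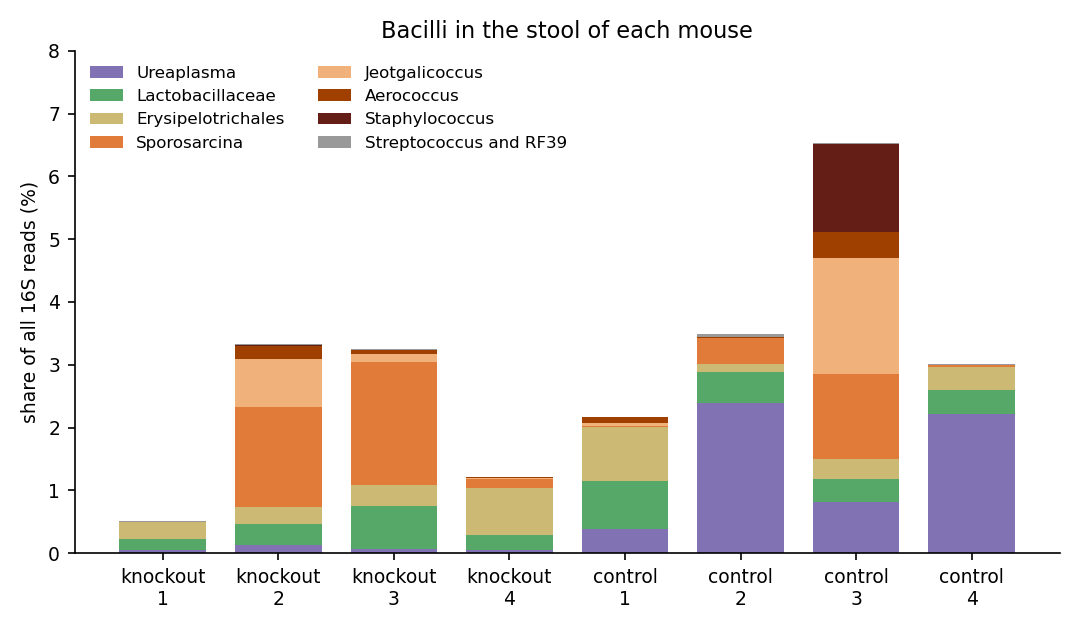
Share of all 16S reads (percent, vertical axis) held by each group of Bacilli in each of the 8 mice, as stacked bars. Control 3 reaches 6.53% and knockout 1 stays at 0.504%, with Ureaplasma the main part in controls 2 and 4 and Sporosarcina the main part in knockouts 2 and 3.

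Ureaplasma, a wall-less genus of Mycoplasmataceae that gains energy by splitting urea, was lower in knockouts. It made up 0.0454%, 0.134%, 0.0740% and 0.0519% of reads in knockouts 1 to 4, from 103, 186, 96 and 78 reads. In controls 1 to 4 it made up 0.382%, 2.40%, 0.813% and 2.22%, from 181, 925, 492 and 2710 reads. Every knockout lay below every control, and the controls themselves spanned a wide range, with controls 2 and 4 far above controls 1 and 3. Mean shares were 0.0762% ± 0.0402 for knockouts and 1.45% ± 1.01 for controls (SD, n = 4 each), a 19.1-fold ratio of means.

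Over all genera, Ureaplasma fell by 3.79 ± 0.70 (SE) on the log2 scale in knockouts, a 13.8-fold lower fitted level (edgeR adjusted p = 0.0277). Of 76 genera tested across the table, 1 passed (1.32%), and it was this one. The same reads carried the family Mycoplasmataceae, which fell by 3.85 ± 0.72 (edgeR adjusted p = 0.0166), where 5.13% of all families passed. They also carried the order Mycoplasmatales, which fell by 3.62 ± 0.69 (edgeR adjusted p = 0.0207), where 3.7% of all orders passed. The direction held in all 16 alternatives, with log2 fold changes from -4.30 to -3.48, while the adjusted p ran from 4.97e-06 to 0.308 and the call was lost in 10 of them. Among these were leaving out any 1 knockout (0.0624, 0.108, 0.133 and 0.0932 without knockouts 1 to 4), control 2 (0.127) or control 4 (0.113). With log2 library size as a covariate the value was -4.23 and the adjusted p 0.134.

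Nearly all Ureaplasma reads belonged to 1 variant. ASV2482 held 4769 of 4771 reads and was present in all 8 mice, and the other variant had 2 reads in knockout 2. As a single ASV it had a log2 fold change of -3.78 ± 0.77 and did not pass over the 265 ASVs tested (edgeR adjusted p = 0.162). None of those ASVs passed (0%), 34 had an unadjusted p below 0.05, and DESeq2 and edgeR without TMM factors each called ASV2482.

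Set against Lactobacillaceae in the same library, which removes the scaling between libraries, Ureaplasma was again lower in each knockout than in each control. It had 0.255, 0.40, 0.108 and 0.212 reads per Lactobacillaceae read in knockouts 1 to 4. In controls 1 to 4 it had 0.503, 5.00, 2.19 and 6.01. Knockout 2 and control 1 were the nearest pair across the genotypes. On the log2 scale, with 0.5 reads added to both counts, the knockout mean of the ratio was -2.18 ± 0.78 and the control mean 1.26 ± 1.63 (SD, n = 4 each), given as a description with no test. Control 4 had 122026 reads, close to the 129792 of knockout 3, and its Ureaplasma share of 2.22% stood beside 0.0740% in that knockout. This is 1 mouse per genotype and does not separate depth from genotype.

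**Figure D2:**
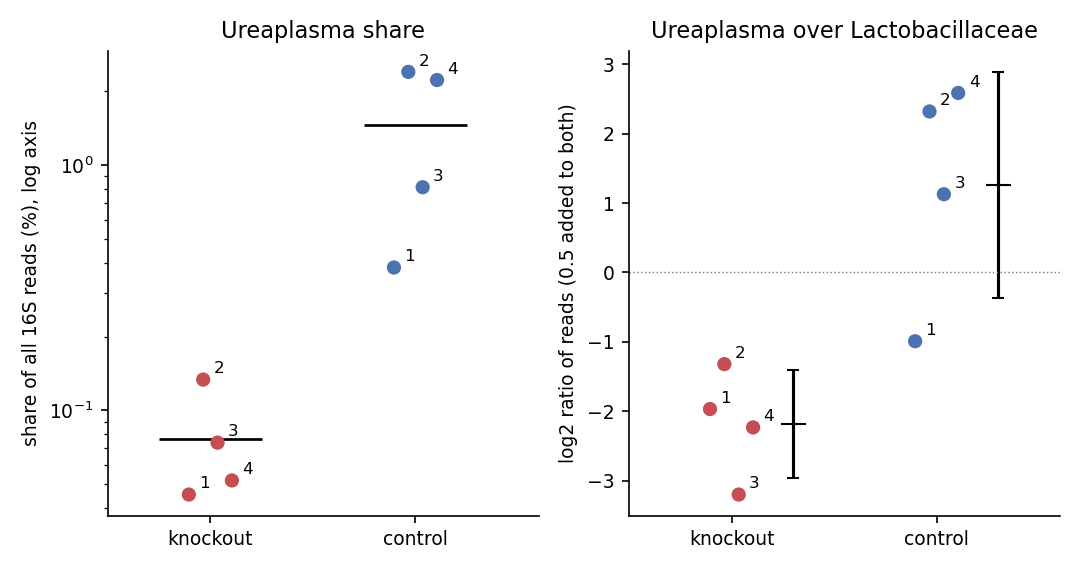
Left, Ureaplasma share of all 16S reads (percent, log axis) in each knockout and control, numbered by mouse, with lines at the group means; right, the log2 ratio of Ureaplasma to Lactobacillaceae reads with mean and SD (n = 4 each). All knockouts lie below all controls in both panels, and control 1, at 0.382%, is the control nearest to them.

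RF39, an order known mainly from environmental DNA and predicted to have small genomes, was the other reduced-genome lineage of the list of wall-less or reduced-wall orders. It had 74 reads in 3 ASVs and was seen in every mouse except control 1. Shares were 0.00132%, 0.0137%, 0.0131% and 0.00332% in knockouts and 0%, 0.0441%, 0.00826% and 0.00656% in controls, in mouse order. The genotypes overlapped, and the fitted difference was -0.70 ± 1.24 on the log2 scale (edgeR adjusted p = 0.958). Its leading variant, ASV3415, held 48 of the reads, and ASV3416 was seen in knockouts 2 and 3 alone, with 23 reads.

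Lactobacillaceae, the lactobacilli that produce lactic acid from sugars, were present in all 8 mice as 3 genus-level units. The family made up 0.178%, 0.334%, 0.682% and 0.245% of reads in knockouts 1 to 4 and 0.761%, 0.480%, 0.372% and 0.370% in controls 1 to 4. Control 1 and knockout 3 were highest, knockout 1 was lowest, and the genotypes overlapped. None of the 3 units passed the edgeR test over all genera. The list of lactic acid bacteria, which adds Aerococcus and Streptococcus, had 0 of 4 tested members past the threshold, and its median log2 fold change was -0.42, where all genera had 0.056. The median was -0.72 with total reads only (all genera -0.33) and turned to 0.74 with log2 library size as a covariate (all genera 0.31), where 3 of the 4 were above 0.

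The largest unit was Lactobacillaceae without a genus name, with 2571 reads. Its share was 0.143%, 0.249%, 0.566% and 0.192% in knockouts 1 to 4, and 0.577%, 0.347%, 0.263% and 0.255% in controls 1 to 4. The fit gave 0.039 ± 0.52 on the log2 scale (edgeR adjusted p = 0.989), a value that was negative in 7 of 16 alternatives. This unit consisted of 2 variants found in every mouse. ASV3617 held 72.9% of its reads, from 50.8% in knockout 3 to 93.8% in knockout 1. The other variant, ASV3534, had 361 reads in knockout 3 and 20 to 68 reads in each of the other mice.

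Ligilactobacillus, a genus of host-adapted lactobacilli that includes a common resident of the mouse gut, showed no overlap between the genotypes. It made up 0.0154%, 0.0647%, 0.0555% and 0.0352% of reads in knockouts and 0.118%, 0.0804%, 0.0677% and 0.0967% in controls. The gap between knockout 2 and control 3 was small, and the libraries rested on 31 to 118 reads each. Means were 0.0427% ± 0.0219 and 0.0908% ± 0.0219 (SD, n = 4 each), a 2.13-fold ratio. With TMM factors, which scale libraries by the bulk of taxa, the log2 fold change was -0.71 ± 0.51 and missed the threshold (edgeR adjusted p = 0.835). Its fold change was negative in all 16 alternatives (-1.16 to -0.52, adjusted p from 0.597 to 0.996).

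Lactobacillus, the genus of mainly homofermentative lactobacilli, made up 0.0194%, 0.0201%, 0.0609% and 0.0180% of reads in knockouts 1 to 4. It made up 0.0655%, 0.0518%, 0.0413% and 0.0180% in controls 1 to 4. Knockout 3 and control 4 crossed the other mice of their genotype, and the log2 fold change was -0.13 ± 0.61 (edgeR adjusted p = 0.958). Ligilactobacillus reads outnumbered Lactobacillus reads in 6 of the 8 mice, with knockouts 1 and 3 the exceptions. The log2 ratio of the 2 genera averaged 0.54 ± 0.94 over knockouts and 1.14 ± 0.84 over controls (SD, n = 4 each), with overlap. Streptococcus, typically a genus of the mouth and upper airway, was seen in knockout 4 and controls 1, 2 and 3 with 7, 5, 4 and 6 reads and was too rare to test.

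Erysipelotrichales were present in every mouse, with 6 genus-level units and 3661 reads. The order made up 0.279%, 0.260%, 0.331% and 0.747% of reads in knockouts 1 to 4 and 0.870%, 0.127%, 0.309% and 0.381% in controls 1 to 4. The knockout mean was 0.404% ± 0.231 and the control mean 0.422% ± 0.318 (SD, n = 4 each). Single mice moved these means. Without control 1 the control mean was 0.272%, below the knockout mean. Without knockout 1, 2 or 3 the knockout mean was 0.446%, 0.452% or 0.429%, above the control mean. Without knockout 4 the knockout mean was 0.290%, and the control mean stayed higher. Of its 5 genera tested, 0 passed, and all 5 had fold changes above 1 with TMM factors, or 4 with total reads only. The median of the 5 was 0.86 against 0.056 for all genera with TMM factors, and 0.40 against -0.33 with total reads only. It was 1.28 against 0.31 with log2 library size as a covariate. Other tools gave mixed signs. With limma-voom, Dubosiella had -0.064, Longibaculum 0.60, Massiliomicrobiota -0.27, Turicibacter 1.36 and unnamed Erysipelotrichaceae -0.40. Centred log-ratios gave 0.095, 0.41, -0.089, 1.44 and -0.49 in the same sequence. The order itself had a log2 fold change of 0.70 ± 0.94 (SE) and did not pass (edgeR adjusted p = 0.879).

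Dubosiella, a rodent gut genus that ferments sugars, was the largest of them. It made up 0.0993%, 0.136%, 0.0416% and 0.481% of reads in knockouts 1 to 4, and 0.744%, 0.111%, 0.0380% and 0.290% in controls 1 to 4. Control 1 and knockout 4 stood highest. The control mean of 0.296% was 0.147% without control 1, the knockout mean of 0.190% was 0.0922% without knockout 4, and the log2 fold change was 0.20 ± 1.13 (edgeR adjusted p = 0.978). Dubosiella was split between 2 main variants present in every mouse. ASV3625 held 95.5% of Dubosiella reads in control 1 and 80.0% in knockout 4, the 2 mice with the highest shares, and 29.6% to 47.8% in the other 6. The other main variant, ASV3630, ranged from 12 reads in controls 1 and 3 to 201 reads in control 4.

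Erysipelotrichaceae without a genus name had 802 reads in 4 variants and were seen in every mouse except knockout 1. Shares were 0.0510%, 0.217% and 0.152% in knockouts 2, 3 and 4 and 0.0338%, 0.0156%, 0.235% and 0.0475% in controls 1 to 4. The control mean of 0.0828% was 0.0323% without control 3, and the knockout mean of 0.105% was 0.0675% without knockout 3. Its fitted log2 fold change was 0.83 ± 1.38 (edgeR adjusted p = 0.958). The makeup differed by mouse, since ASV3477 was the sole variant in control 1 and ASV3627 the sole variant in control 2, while knockouts 3 and 4 carried all 4. ASV3476 had reads in those 2 knockouts alone (43 and 57 reads).

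Faecalibaculum, a close relative of Dubosiella first described from mice, had nearly all its reads in 1 animal. Knockout 1 had 393 reads (0.173%, 95% Wilson interval 0.157 to 0.191%), knockouts 2 and 4 had 9 and 8 reads, and knockout 3 and all controls had 0. The reads came from 1 variant, ASV3626. The 0 reads of controls 1 to 4 allow shares of up to 0.00634%, 0.00778%, 0.00495% and 0.00246%, beside 0.00647% in knockout 2 and 0.00532% in knockout 4. In 38578 reads drawn from their libraries, the depth of control 2, at least 1 Faecalibaculum read would be seen with a probability of 0.946 for knockout 2 and 0.907 for knockout 4. The draw was from deposited counts and did not repeat the calling of variants. The chance of the variant being called at that depth was not estimated. With 1 mouse above 10 reads the genus was not tested.

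The remaining Erysipelotrichales genera were rare. Turicibacter, a spore-forming genus of the small intestine, was seen in every mouse except control 2, with at most 51 reads. Longibaculum and Massiliomicrobiota, anaerobes of the Erysipelatoclostridiaceae, were both absent from knockout 1 and control 2. Massiliomicrobiota reached 121 reads (0.0805%) in knockout 4 and 25 reads or fewer elsewhere. Log2 fold changes were 0.95 ± 0.97, 0.86 ± 1.34 and 1.20 ± 1.64 for the 3 genera in this order, each with an edgeR adjusted p of 0.958.

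Sporosarcina, a genus of spore-forming rods many of which split urea, had the most reads of any Bacilli genus (6012, in 1 variant). It made up 0%, 1.6%, 1.97% and 0.140% of reads in knockouts 1 to 4 and 0.00634%, 0.417%, 1.36% and 0.0229% in controls 1 to 4. Knockouts 2 and 3 and control 3 were high, and the 0 of knockout 1 allows a share of up to 0.00132%. Means were 0.928% ± 1.00 and 0.452% ± 0.636 (SD, n = 4 each). The control mean was 0.149% without control 3, and the knockout mean 0.582% without knockout 3. The log2 fold change of 1.10 ± 1.77 did not pass (edgeR adjusted p = 0.958), and it ran from 0.66 without knockout 3 to 2.42 without control 3, and was 5.67 ± 3.96 with log2 library size as a covariate.

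Jeotgalicoccus, a salt-tolerant relative of Staphylococcus, made up 0%, 0.762%, 0.116% and 0.0133% of reads in knockouts 1 to 4. It made up 0.0549%, 0.00778%, 1.85% and 0.00410% in controls 1 to 4. Control 3 and knockout 2 stood apart from the rest of their genotypes, and without control 3 the control mean was 0.0223% in place of 0.479%. Without knockout 2 the knockout mean was 0.0430% in place of 0.223%. The fit gave a log2 fold change of -0.93 ± 2.00 (edgeR adjusted p = 0.958), which became 3.08 without control 3 and -3.25 without knockout 2.

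Aerococcus, a genus of facultative cocci related to the lactic acid bacteria, had 0.207%, 0.0632% and 0.00864% of reads in knockouts 2, 3 and 4. It had 0.0908%, 0.0130% and 0.401% in controls 1, 2 and 3, and 0 reads in knockout 1 and control 4. The fit gave a log2 fold change of -0.73 ± 1.77 (edgeR adjusted p = 0.958), or 0.78 without control 3 and -2.21 without knockout 2. Staphylococcus, a skin coloniser of mammals, had 852 reads (1.41%, 95% Wilson interval 1.32 to 1.5%) in control 3, 29 reads (0.0208%) in knockout 2 and 0 in the other 6 mice. It was seen in too few mice to test.

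The skin and bedding genera overlapped in the mice that carried them. Sporosarcina and Jeotgalicoccus were present in the same 7 mice and both absent from knockout 1. Aerococcus was present in 6 of these 7, missing from control 4, and Staphylococcus in 2 of them. The counts did not change when at least 3 reads were asked for. Genera outside the list had the same mice, since unnamed Erysipelotrichaceae were present in exactly these 7 and Longibaculum and Massiliomicrobiota each in 6 of them, so shared presence does not set the list apart. The 2 mice with Staphylococcus, control 3 and knockout 2, were also the 2 with the highest shares of Jeotgalicoccus and of Aerococcus, and with knockout 3 they were the 3 highest for Sporosarcina. The list of skin, bedding and soil genera had 16 names, of which these 4 had reads. Of its 3 members tested 0 passed, beside 1.32% of all genera. The median log2 fold change was -0.73 with TMM factors (all genera 0.056) and -0.86 with total reads only (all genera -0.33). With log2 library size as a covariate the median was 6.06 (all genera 0.31). That median was the value of Jeotgalicoccus, 6.06 ± 6.07 (SE), and Aerococcus had 7.61 ± 5.12.

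The mixture of these genera was not constant. Sporosarcina reads per Jeotgalicoccus read were 2.11, 17.0 and 10.6 in knockouts 2, 3 and 4, and 0.115, 53.7, 0.737 and 5.60 in controls 1 to 4. Together the 4 genera made up 0%, 2.59%, 2.14% and 0.162% of reads in knockouts and 0.152%, 0.438%, 5.02% and 0.0270% in controls. The control mean of 1.41% was 0.206% without control 3, and the knockout mean of 1.23% was 0.769% without knockout 2 and 0.919% without knockout 3. Each genotype thus held both high and low mice. Of 15 genera of other classes listed as possible companions, 3 had reads. Corynebacterium, another skin genus, had 3 reads in knockout 2, Rothia had 2 reads each in knockout 3 and control 1, and Escherichia-Shigella had 95 reads over 7 mice.

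Presence varied more between mice than between genotypes. Of the 16 genera, 5 had reads in all 8 mice (Ureaplasma, Dubosiella, Lactobacillus, Ligilactobacillus and unnamed Lactobacillaceae), 5 in 7 mice, 3 in 6 mice, and Streptococcus, Faecalibaculum and Staphylococcus in 4, 3 and 2. Knockouts 1 to 4 carried 8, 15, 13 and 15 genera and controls 1 to 4 carried 13, 11, 15 and 12, a mean of 12.8 in each genotype. At the depth of the smallest library, 38578 reads, the expected numbers were 7.37, 14.9, 13.0 and 14.5 in knockouts and 13.0, 11, 15.0 and 11.8 in controls. These numbers rest on draws from deposited counts and do not repeat the calling of variants. Knockout 1 was the deepest library and had the fewest Bacilli genera. Its low count was not limited to Bacilli. Over all classes it had reads of 222 ASVs, beside 320, 280 and 254 in knockouts 2 to 4. Controls 1 to 4, with fewer reads, had 226, 201, 253 and 279. In 11 of the 16 Bacilli genera, knockout 1 had either 0 reads or the lowest share of the 8 mice. It had 0 reads in 8 of these. Of those, Staphylococcus, Streptococcus, Aerococcus, Longibaculum and Massiliomicrobiota also had 0 reads in at least 1 other mouse. The same count was not made over all genera.

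**Figure D3:**
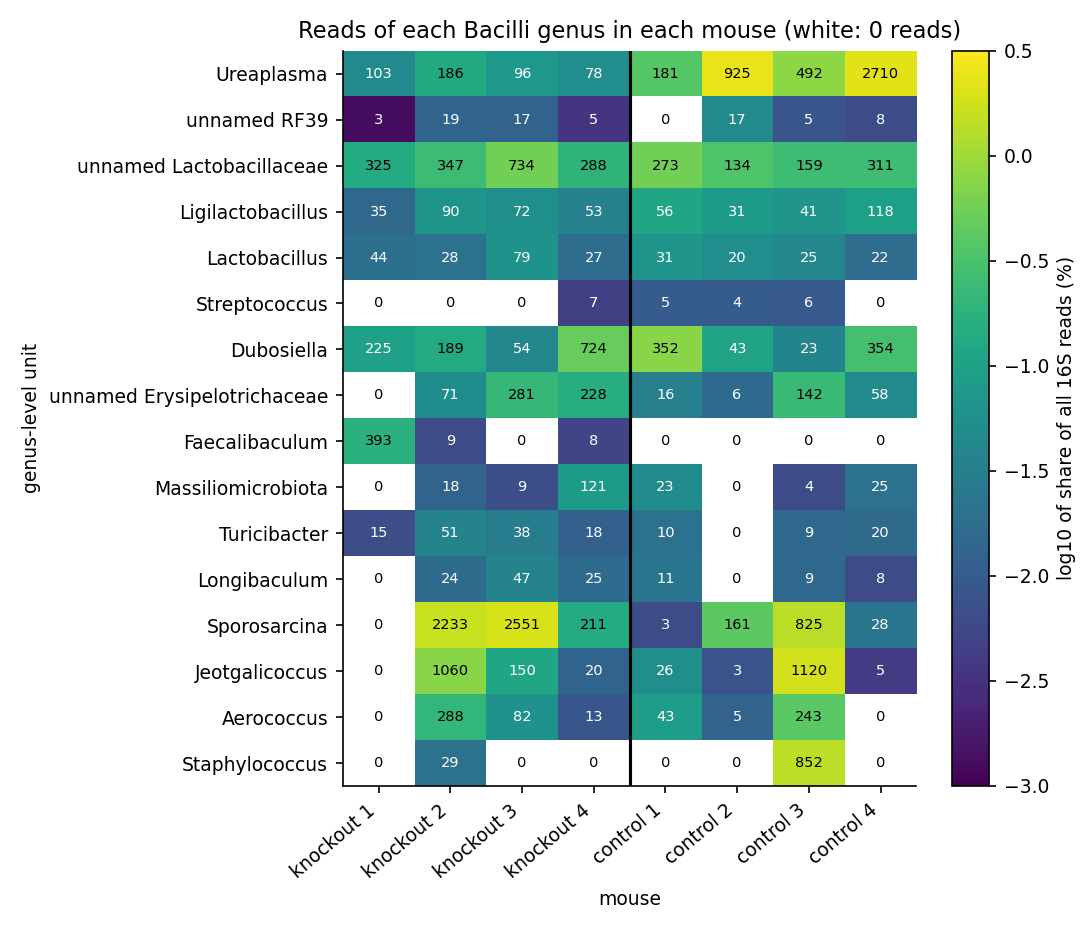
Reads of each of the 16 Bacilli genera (rows) in each mouse (columns), coloured by log10 of the share of all 16S reads in percent, with white for 0 reads. The 4 skin and bedding genera at the bottom are all at 0 in knockout 1, and Staphylococcus has reads in knockout 2 (29) and control 3 (852) alone.

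Of the 16 genera, 13 had at least 10 reads in at least 3 mice and were tested, and 1 passed, against 1.32% of all genera. Of the 13, 7 lay above 0 on the log2 scale and 6 below it with TMM factors. With total reads only, 5 were above and 8 below. With log2 library size as a covariate, 11 were above and 2 below, Ureaplasma and Ligilactobacillus, and 0 passed (edgeR adjusted p from 0.134 to 0.996). The median was 0.039 against 0.056 for all 76 genera with TMM factors, -0.57 against -0.33 with total reads only, and 1.28 against 0.31 with the covariate. The other 12 had edgeR adjusted p-values from 0.835 to 0.989. The genotypes did not overlap in 2 of the 13, Ureaplasma and Ligilactobacillus, beside 5.26% of all genera tested, all of them lower in knockouts. At the other ranks the genotypes did not overlap in 1 of 8 Bacilli families (7.69% of all families, each lower in knockouts) and 1 of 6 orders (7.41% of all orders, each lower in knockouts). Among ASVs, 2 of 16 did not overlap, ASV2482 of Ureaplasma and ASV3537 of Ligilactobacillus, both lower in knockouts, beside 9.81% of all ASVs in either direction and 6.04% with knockouts lower.

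**Figure D4:**
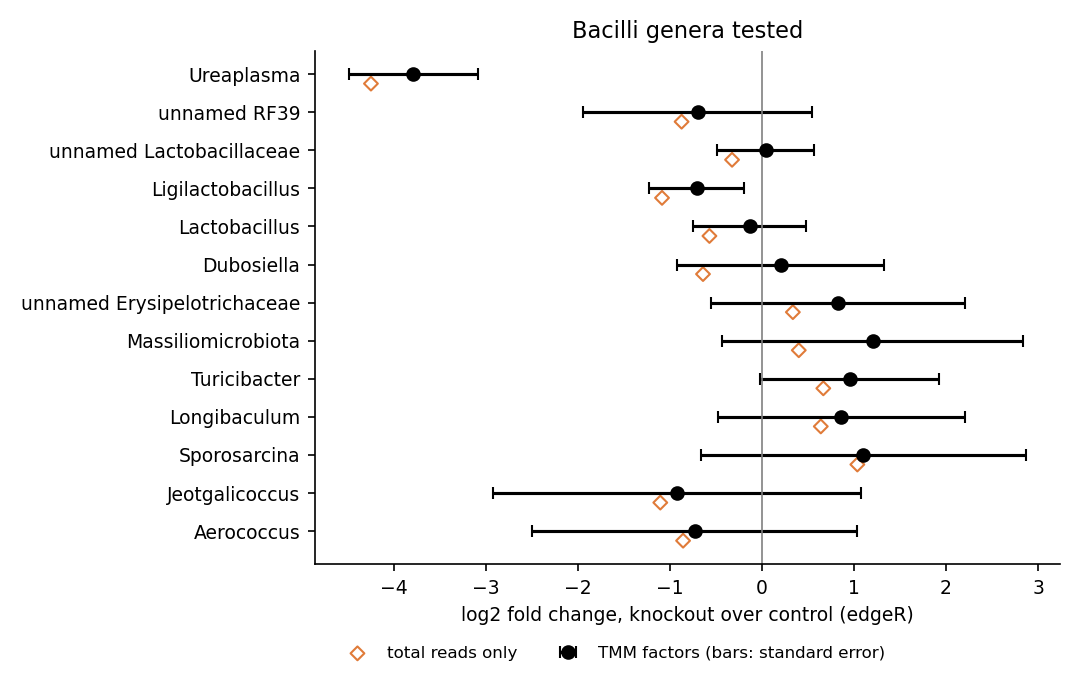
Log2 fold change, knockout over control, of the 13 Bacilli genera tested with edgeR (points with standard error bars, TMM factors), and the same with total reads only (open diamonds). Ureaplasma lies at -3.79, and the other 12 lie between -0.93 and 1.20 with TMM factors.

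The spread between mice differed by group. The coefficient of variation of shares over the 8 mice was 49.0% for Ligilactobacillus, 50.5% for unnamed Lactobacillaceae and 55.5% for Lactobacillus, the least variable of the 13 Bacilli genera. They ranked 9, 12 and 16 from the lowest of 76 genera, whose median was 74.9%. Counting error alone would give 14.7%, 6.52% and 20.1% in these 3. At the other end stood Jeotgalicoccus at 187.6%, the highest of all 76 tested, and Aerococcus at 144.1% (rank 72). Staphylococcus (278.2%) and Faecalibaculum (262.5%) varied more but were not tested, so they were not ranked. Ureaplasma, whose share in every knockout lay below that in every control, had 129.2%. The median of the 13 was 103.5%, and 7 of them exceeded 100%, as did 21 of all 76.

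Most Bacilli genera were carried by a single variant. Of the 16 genera, 10 consisted of 1 ASV each. Of the 26 ASVs, 7 were seen in all 8 mice (26.9%, beside 28.3% of all 434 ASVs) and 3 in 1 mouse (11.5%, beside 26.3%). Of the 26, 16 had enough reads to be tested and 0 passed, with 1 at an unadjusted p below 0.05. That one was ASV2482 of Ureaplasma.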

How the data were processed

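The authors deposited 1 table of read counts by ASV from DADA2, as its name states, with a column for each mouse, matched here by library name. Per the labels' protocols, the V4 region was amplified from 10 ng of stool DNA in 25 cycles (primers at 515 and 806) and read at 151 bases per end. R 4.5.1 and limma appear in the submitters' processing notes, with no role stated. Read filtering, chimera removal and the reference taxonomy were not stated. ASV numbers are positions in the table.

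Counts were summed to genus, family, order and class over the whole table. A unit was tested when 3 or more mice had 10 or more reads of it, using edgeR 4.0.16 (R 4.3.3; TMM factors, robust quasi-likelihood), with Benjamini-Hochberg adjustment over all units of a rank and a threshold of 0.05. Each SE of an edgeR log2 fold change was derived as its absolute value divided by the square root of the F statistic. No label names cages, litters or separate runs, so p-values treat the 8 mice as independent. Genus TMM factors were 0.44, 1.23, 1.46 and 0.59 in knockouts 1 to 4 and 1.13, 1.18, 1.41 and 1.15 in controls 1 to 4. The lowest belonged to knockouts 1 and 4. Alternatives were DESeq2 1.42.0, limma-voom (limma 3.58.1), total reads, centred log-ratios (pseudocount 0.5), other filters, log2 library size as a covariate, and leaving out mice. The fitting code was tested on simulated data. Shares, presence, intervals and ratios used Python 3.11.15 with SciPy 1.17.1. Every Bacilli genus with reads is named; ASVs are those leading a genus or, chosen after their values were seen, those showing its makeup. Members, lists and tests were chosen with earlier results of these data known.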

Additional observations from a re-analysis of the deposited data

Results flagged for a closer look

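In 10 of 33 sets of 4 mice examined (each genus and the class, within a genotype), 1 mouse lay far from the other 3, with a gap above Dixon's 95% critical share of the range. That critical value gives about 1 in 20 only for independent, normally distributed values. These shares are skewed and often 0, and the sets share mice, so 10 of 33 cannot be compared with that rate. In 3 of the 10 the other 3 mice had 0 reads, where any read gives the largest gap. These 3 were Staphylococcus in control 3 (1.41%), Staphylococcus in knockout 2 (0.0208%) and Streptococcus in knockout 4 (0.00465%). Faecalibaculum reached 0.173% in knockout 1, against at most 0.00647% in the other knockouts. Jeotgalicoccus reached 0.762% in knockout 2, against at most 0.116%, and 1.85% in control 3, against at most 0.0549%. Lactobacillus reached 0.0609% in knockout 3, against 0.0180% to 0.0201%. Massiliomicrobiota reached 0.0805% in knockout 4, against at most 0.0129%. Unnamed Erysipelotrichaceae reached 0.235% in control 3, against 0.0156% to 0.0475%. Streptococcus was at 0 in control 4, against 0.00991% to 0.0106% in the other controls. Control 3 and knockout 2 account for 5 of the 10.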

How the results depend on the processing

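The Ureaplasma call at the genus rank (1 genus) went to 0 with limma-voom, centred log-ratios, log2 library size as a covariate, and knockout 1 and control 2 both left out, and ranged from 0 to 1 over single left-out mice. The family count (1) went to 0 with centred log-ratios and with both mice left out, and the order count (1) to 0 with limma-voom, centred log-ratios and the covariate, each from 0 to 1 over single left-out mice. The ASV count (0) went to 1 with DESeq2 and with total reads only. Class Bacilli stayed below 0 and uncalled throughout (-0.95 to -0.19). Of 13 genera, 5 kept their sign in every alternative that gave a value (Ureaplasma, Ligilactobacillus, Sporosarcina, Longibaculum and Turicibacter), and none but Ureaplasma was called in any. The other 8 changed sign, with these log2 fold changes; the cause was not tested. With limma-voom: Aerococcus 1.10, Dubosiella -0.064, Jeotgalicoccus 0.38, Lactobacillus 0.10, Massiliomicrobiota -0.27, unnamed Erysipelotrichaceae -0.40, RF39 0.26. With the covariate (± SE): Aerococcus 7.61 ± 5.12, Jeotgalicoccus 6.06 ± 6.07, Lactobacillus 0.89 ± 1.23, RF39 1.29 ± 1.98. With centred log-ratios: Massiliomicrobiota -0.089, unnamed Erysipelotrichaceae -0.49, RF39 0.17. With DESeq2 and total reads only: Dubosiella -0.096 and -0.64, unnamed Lactobacillaceae -0.049 and -0.33. With both mice left out: Dubosiella -0.26, unnamed Lactobacillaceae -0.098. Single left-out mice gave -2.21 to 0.78 for Aerococcus, -1.08 to 1.25 for Dubosiella, -3.25 to 3.08 for Jeotgalicoccus, -0.44 to 0.18 for Lactobacillus, -1.63 to 2.24 for Massiliomicrobiota and -0.37 to 0.41 for unnamed Lactobacillaceae. DESeq2 gave no adjusted p for Jeotgalicoccus, and stricter filters or fewer mice left RF39, Longibaculum and Massiliomicrobiota untested in some settings. Presence counts and ratios moved by less than the spread between mice. No paired analysis was possible because the numbers within a genotype are names given in order of deposit and pair no mice. RF39, Streptococcus, Turicibacter, Longibaculum and Massiliomicrobiota had under 30 reads in most mice, which limits their fold changes.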
